A study of Mus musculus with 8 samples.

Results

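The imprinted Dlk1-Dio3 locus on mouse chromosome 12 holds a long series of microRNAs (miRNAs), and their levels were examined here in the culture medium of muscle cells. The members were the locus miRNAs on a list of 55 mature names, found by name among the mouse miRNAs of an Agilent array. Of these, 54 were on the array, out of 1881 mouse miRNAs, and miR-299a-5p was not analysed here. The 54 came from 42 precursors. miR-411 and miR-379 of the same locus were not members. The 54 fell into 14 on the Meg3-Rtl1 side, 2 in Rian and 38 on the Mirg side.

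The medium came from primary myocytes of the hind limbs of newborn mice, 1 to 3 days old, which all carried a human SOD1 transgene. Mice of strain B6SJL(Tg-SOD1)2Gur/J overexpressed the wild-type protein (WT), and mice of strain B6SJL(Tg-SOD1*G93A)1Gur/J the G93A mutant, which models amyotrophic lateral sclerosis. Both colonies were kept by mating hemizygous males with B6SJLF1/J females, and every sample was tagged male. Cells shared medium across a 0.4 µm membrane, and medium was taken at 2 days in vitro. The 3 groups are named as in the sample titles, which by the labelled growth protocol put the bottom chamber first and the insert second. The series' design text writes the mixed pair in the other order, so which cells of the mixed culture were in which chamber rests on that protocol. WT/WT had 2 samples, and the mixed G93A/WT cultures and the pure G93A/G93A cultures had 3 each. WT/WT was the control, myocytes without a transgene were not analysed here, and the samples are labelled biological replicates, with no word on whether animals were pooled. The labels do not settle which serum-containing medium was collected, with 10% foetal bovine or 2% horse serum, and serum miRNAs of the same sequence would bind the same probes. In medium, fewer cells of a type, less RNA per cell and less release per cell cannot be told apart.

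The Dlk1-Dio3 locus is imprinted: the protein-coding genes Dlk1, Rtl1 and Dio3 are expressed mainly from the paternal chromosome, and the long noncoding RNAs Meg3 (Gtl2), Rian and Mirg, with the miRNAs and small nucleolar RNAs made from them, from the maternal one. The noncoding genes are thought to be read as one long transcript, from which hairpins are cut and then processed into a 5p and a 3p arm. A group of these hairpins lies antisense to Rtl1, and miR-127, miR-136, miR-431, miR-433 and miR-434 of that group direct cleavage of the Rtl1 transcript. The locus is known in muscle from the callipyge sheep, whose hindquarter hypertrophy maps to it, and its miRNAs are expressed in satellite cells and regenerating muscle.

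The 4 miRNAs that passed the test between G93A/G93A and WT/WT are printed first, because the results below turn on them, and 2 pairs of near-identical members follow, because a probe for one could read the other. Mature sequences are from RefSeq (GRCm38.p6), 5′ to 3′, with the seed (bases 2 to 8), the stretch that pairs with targets, in capitals, and the prefix mmu- stands for mouse.
mmu-miR-337-5p: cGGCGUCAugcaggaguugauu
mmu-miR-431-5p: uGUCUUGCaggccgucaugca
mmu-miR-127-3p: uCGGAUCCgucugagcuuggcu
mmu-miR-496a-3p: uGAGUAUUacauggccaaucuc
mmu-miR-299a-3p: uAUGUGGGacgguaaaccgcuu
mmu-miR-299b-3p: uAUGUGGGacgguaaacc
mmu-miR-300-3p: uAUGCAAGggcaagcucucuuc
mmu-miR-381-3p: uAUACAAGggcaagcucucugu
The hairpins of the first 3 stand close together on the Meg3-Rtl1 side, Mir337 at chr12:109585789-109585885, Mir431 at chr12:109590447-109590537 and Mir127 at chr12:109592846-109592915, and Mir496a lies on the Mirg side at chr12:109739119-109739197, all on the plus strand. Seeds were matched for 51 of the 54 members, and miR-376c-3p, miR-485-5p and miR-487b-3p are named only. The 4 lower miRNAs have 4 different seeds. miR-337-5p and miR-431-5p share the 9-base run CGUCAUGCA, from base 4 of the first and base 13 of the second, outside the seed of miR-431-5p. Other pairs of members share runs as long or longer, such as 10 bases in miR-485-3p and miR-154-3p, so the run does not set the lower miRNAs apart.

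In RefSeq order, the 9 hairpins of the Meg3-Rtl1 side spanned 23.4 kb and all lay within the bounds of Rtl1. The 2 Rian hairpins, Mir341 and Mir370, spanned 6.84 kb inside Rian. The 30 placed hairpins of the Mirg side spanned 37.3 kb, 8 of them within the bounds of Mirg and 22 between annotated host genes. A stretch of 92.4 kb separated Mir370 from Mir299a. Every placed hairpin was on the plus strand except Mir299b, which lies opposite Mir299a.

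Of the 54 members, 39 were detected on all 8 arrays, 6 on some and 9 on none. The undetected members were miR-127-5p, miR-154-3p, miR-369-3p, miR-541-5p, miR-544-3p, miR-668-3p, miR-673-3p, miR-679-5p and miR-758-3p. The 45 members detected on at least 2 arrays were tested, 12 on the Meg3-Rtl1 side, 2 in Rian and 31 on the Mirg side. Of miR-127 and miR-369, only 1 arm of each was detected, the 3p arm of miR-127 and the 5p arm of miR-369, and of miR-154 only the 5p arm.

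The number of members detected was 41 and 42 on the WT/WT arrays, 43, 45 and 43 on G93A/WT and 40, 39 and 43 on G93A/G93A, or 41.5 ± 0.707 (SD, n = 2), 43.7 ± 1.15 (n = 3) and 40.7 ± 2.08 (n = 3). The G93A/WT counts lay above both WT/WT counts, and the G93A/G93A counts spanned them. Members took 2.78% and 2.72% of an array's total signal in WT/WT, 2.85%, 3.54% and 3.27% in G93A/WT, and 2.46%, 2.62% and 3.06% in G93A/G93A. The highest share was on G93A/WT 2, the array with the most detected miRNAs of any kind (563, against 450 to 520 on the others). Over the 39 members detected everywhere, log2 signals correlated at r = 0.977 to 0.995 between arrays of one group and at r = 0.959 to 0.994 between arrays of different groups, values set largely by the fixed differences between probes.

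Across the series, the G93A/WT arrays were brighter than the rest: the factors that bring arrays to one scale averaged 0.760 ± 0.170 (SD, n = 3) there, 1.28 ± 0.216 (n = 2) in WT/WT and 1.15 ± 0.168 (n = 3) in G93A/G93A. WT/WT 1 was in slide row 1 with every G93A/WT array, and WT/WT 2 was in row 2 with every G93A/G93A array. The labelled cell type was checked on lists of marker miRNAs by their summed scaled signal. Of 12 muscle miRNAs, 6 were detected on at least 1 array, and the list summed to 4522 to 5194 in WT/WT, 4344 to 5261 in G93A/WT and 4094 to 5063 in G93A/G93A. Of its 5 tested members, 1 passed, miR-133a-5p, which was detected in G93A/WT alone and was higher there than in either other group. It was tested only through those brighter arrays and stood at the floor of the scale on the others. Its pass thus rests on floored values without spread. miR-208b-3p and the 5p arms of miR-1a, miR-1b, miR-133b and miR-206 were undetected throughout. An epithelial list moved with the groups, with a sum of 138 to 166 in WT/WT, 61.2 to 85.0 in G93A/WT and 0 to 5.36 in G93A/G93A. All 5 of its tested members, of 7 listed, were lower in G93A/G93A than in either other group. None of them was detected on all arrays. Their G93A/G93A values were at or near the floor of the scale, so these calls rest on floored values. A fibroblast list of 7 summed to 1157 to 1308, 1313 to 1416 and 729 to 1074 in the same order, with 1 of 6 tested members lower in G93A/G93A against WT/WT. A leukocyte list of 6 summed to 129 to 135, 162 to 177 and 158 to 189, with 1 of 3 tested members higher in G93A/G93A than in WT/WT. The erythroid and serum, neural and endothelial lists had no member past the threshold in these comparisons. The part of these shifts in the results below was not tested.

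The map of signals by array shows the 45 tested members in locus order.

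**Figure D1:**
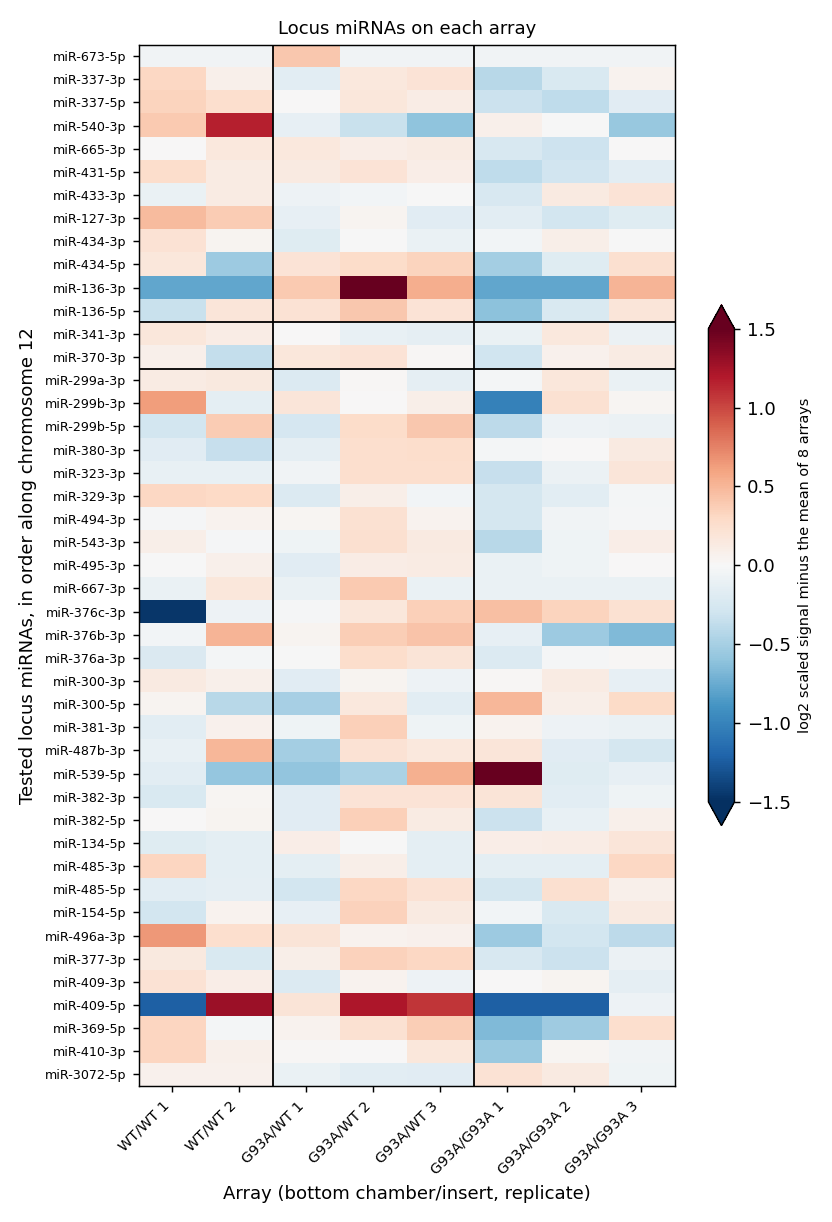
Log2 scaled signal of each tested locus miRNA on each array, minus that miRNA's mean over the 8 arrays (colour, red above and blue below, limited at 1.5), with members as rows in order along chromosome 12 and arrays as columns. Horizontal lines part the Meg3-Rtl1 side, Rian and the Mirg side, vertical lines part the groups, and miR-136-3p and miR-409-5p, each undetected on some arrays, show the widest swings.

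Medium of G93A/G93A cultures was first compared with that of WT/WT cultures. The compared values are log2 scaled signals, with limma's moderated standard error (SE) and Benjamini-Hochberg adjustment over 538 tested miRNAs. Of the 45 tested locus miRNAs, 4 were lower in G93A/G93A and none was higher: miR-127-3p, miR-337-5p and miR-431-5p of the Meg3-Rtl1 side and miR-496a-3p of the Mirg side. Among all 538 tested miRNAs, 8.55% passed in either direction, 4.83% lower and 3.72% higher, against 8.89% of the locus members. The total share of locus miRNAs that passed was thus close to the background. The members' median log2 difference was −0.13, with 29 of 45 below 0, and over all tested miRNAs it was −0.01, with 57.1% below 0. Over miRNAs detected on all arrays, the median was −0.13 for 39 members and −0.07 for all 423. For tested miRNAs numbered below 1000, to which 38 of those 39 members belong, it was −0.11. This set of 290 also holds miRNAs not detected on all arrays. The members' median thus lay close to that of a low-numbered set that includes them.

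mmu-miR-127-3p, one of the miRNAs that direct cleavage of the Rtl1 transcript, had log2 signals of 7.68 and 7.58 in WT/WT, 7.08, 7.25 and 7.03 in G93A/WT and 7.05, 6.93 and 7.02 in G93A/G93A. Both WT/WT arrays stood above all 6 others, and the 2 groups with mutant cells overlapped. The log2 difference of G93A/G93A from WT/WT was −0.63 ± 0.11 (SE, limma adjusted p = 0.0211).

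mmu-miR-337-5p is cut from the hairpin just before Mir540 near the Meg3 end of the group. It read 3.43 and 3.35 in WT/WT, 3.10, 3.26 and 3.20 in G93A/WT and 2.77, 2.72 and 2.93 in G93A/G93A. None of the 3 groups overlapped, with WT/WT highest and G93A/G93A lowest. G93A/G93A differed from WT/WT by −0.58 ± 0.11 (SE, limma adjusted p = 0.0234).

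mmu-miR-431-5p also acts on Rtl1 and is known in muscle as a regulator of Pax7, the satellite cell transcription factor. It read 5.06 and 4.92 in WT/WT, 4.93, 5.00 and 4.89 in G93A/WT and 4.42, 4.52 and 4.64 in G93A/G93A. The 3 G93A/G93A arrays lay below the other 5, which overlapped each other. Its log2 difference from WT/WT was −0.46 ± 0.11 (SE, limma adjusted p = 0.0489).

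mmu-miR-496a-3p, whose hairpin lies within the bounds of Mirg, read 3.88 and 3.48 in WT/WT, 3.43, 3.28 and 3.30 in G93A/WT and 2.68, 2.96 and 2.84 in G93A/G93A. The groups did not overlap, and the WT/WT arrays lay further apart than those of either other group. The log2 difference of G93A/G93A from WT/WT was −0.85 ± 0.15 (SE, limma adjusted p = 0.0211).

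The 4 calls did not hold under every choice of arrays. With the slide row as a block, which sets G93A/G93A against WT/WT 2 alone and gives the values found on leaving out WT/WT 1, the log2 differences were −0.58, −0.54, −0.39 and −0.66 in the order miR-127-3p, miR-337-5p, miR-431-5p and miR-496a-3p, with adjusted p = 0.135, 0.135, 0.241 and 0.135 by limma, and the arrays of row 2 alone gave the same sizes with no call. Without WT/WT 2 miR-496a-3p was the one of these 4 left and miR-376c-3p passed as higher, without G93A/G93A 1 the calls were miR-127-3p and miR-496a-3p, and without G93A/G93A 2 miR-496a-3p alone. Without any 1 of the G93A/WT arrays miR-431-5p was lost and the other 3 passed.

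**Figure D2:**
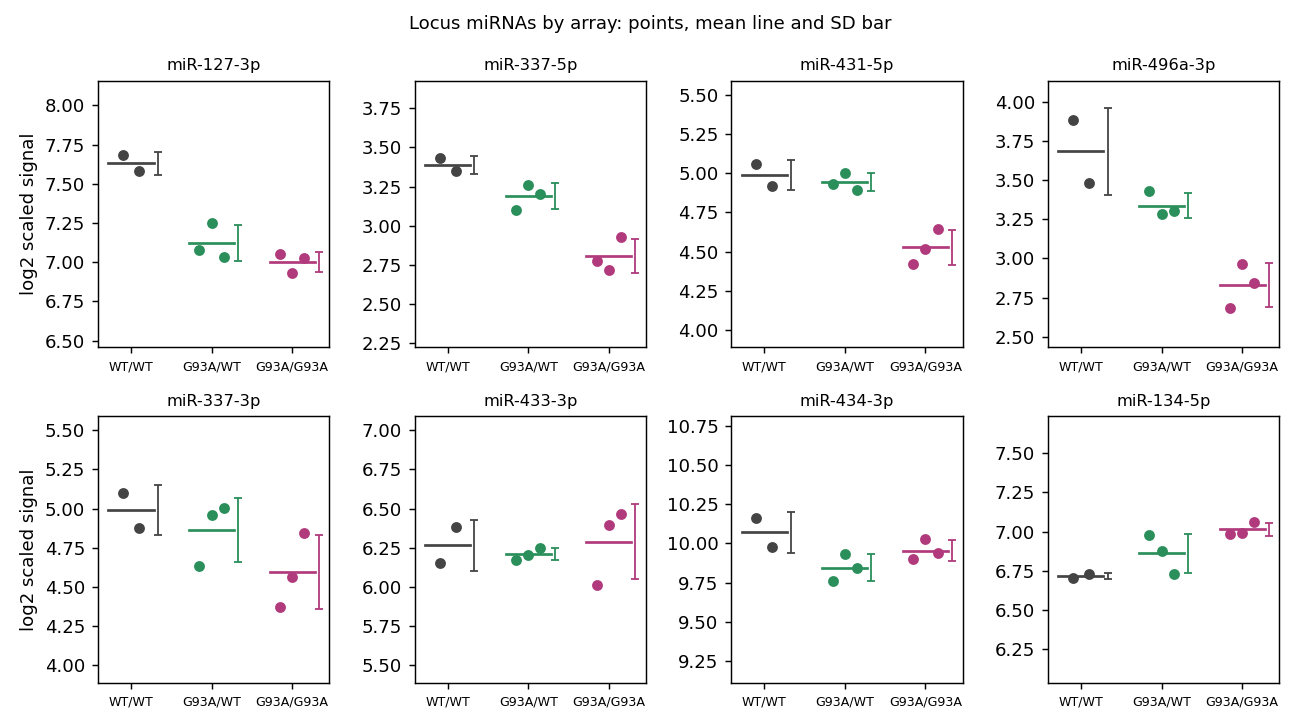
Log2 scaled signal of 8 locus miRNAs on each array (points), with the group mean (line) and SD (bar beside it), for WT/WT (n = 2), G93A/WT and G93A/G93A (n = 3 each), each panel covering an equal range of log2 units. The 4 miRNAs of the upper row have every G93A/G93A array below both WT/WT arrays, while miR-433-3p and miR-434-3p overlap between those groups.

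The other detected miRNAs known to act on Rtl1 did not pass. miR-433-3p read 6.15 and 6.38 in WT/WT, 6.17, 6.21 and 6.25 in G93A/WT and 6.01, 6.39 and 6.46 in G93A/G93A. The groups overlapped throughout, and the log2 difference of G93A/G93A from WT/WT was 0.02 ± 0.16 (SE). miR-434-3p, a bright member, read 10.16 and 9.98, then 9.76, 9.93 and 9.84, then 9.90, 10.03 and 9.94, a difference of −0.12 ± 0.11 (SE). miR-136-5p read 3.50 and 4.01, then 4.05, 4.24 and 4.04, then 3.21, 3.60 and 4.01, a difference of −0.14 ± 0.25 (SE). For miR-434-3p WT/WT 1 was highest and the rest overlapped, and for miR-136-5p the lowest array was G93A/G93A 1. Their differences from that of miR-127-3p, whose hairpin lies between Mir433 and Mir434, were not tested.

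The test of G93A/G93A against WT/WT gave 9 of 45 members an unadjusted p below 0.05, against 143 of 538 tested miRNAs. Groups did not overlap for 10 of 45 members with G93A/G93A lower, against 22.7% of tested miRNAs, and for 4 with it higher, against 18%. Both shares of members, 22.2% and 8.89%, were at or under the background. Among members that did not pass, miR-540-3p and miR-376c-3p had the largest differences. miR-540-3p read 1.65 and 2.43 in WT/WT, 1.14, 0.92 and 0.65 in G93A/WT and 1.34, 1.26 and 0.70 in G93A/G93A. Both WT/WT arrays were above the other 6, at a difference of −0.94 ± 0.29 (SE, limma adjusted p = 0.103) near the floor of the scale.

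The miR-376 members belong to a family known for editing of their precursors by adenosine deaminases, and none of the 3 tested here passed. miR-376c-3p read 1.22 and 2.60 in WT/WT, 2.66, 2.85 and 3.04 in G93A/WT and 3.13, 3.01 and 2.91 in G93A/G93A. WT/WT 1 stood far below the other 7 arrays. The difference was 1.11 ± 0.36 (SE, limma adjusted p = 0.108), and without WT/WT 2 it was 1.79 with adjusted p = 0.00607. miR-376b-3p read 3.41 and 3.95, then 3.48, 3.81 and 3.87, then 3.32, 2.90 and 2.78, with all G93A/G93A arrays below the other 5. Its difference from WT/WT was −0.68 ± 0.24 (SE, limma adjusted p = 0.122). miR-376a-3p differed by 0.05 ± 0.13 (SE) and its arrays overlapped.

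On the Mirg side, miR-134-5p, a brain-enriched miRNA known to limit dendritic spine size through Limk1, read 6.71 and 6.73 in WT/WT, 6.98, 6.88 and 6.73 in G93A/WT and 6.98, 6.99 and 7.06 in G93A/G93A. Every G93A/G93A array was above both WT/WT arrays, at a difference of 0.29 ± 0.11 (SE, limma adjusted p = 0.139). It passed in the authors' deposited table, refitted in the same way, at 0.44 with adjusted p = 0.0426. miR-329-3p, which acts with miR-134 in activity-dependent dendrite growth, read 8.23 and 8.22, then 7.70, 8.00 and 7.87, then 7.64, 7.75 and 7.88. Both WT/WT arrays were highest, and the difference was −0.46 ± 0.13 (SE, limma adjusted p = 0.0749). miR-369-5p read 4.45 and 4.09, then 4.17, 4.35 and 4.49, then 3.46, 3.59 and 4.38, so that G93A/G93A 3 lay among the other groups. It differed by −0.46 ± 0.28 and passed only without that array, at −0.74 with limma adjusted p = 0.0487.

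The subclusters were then set side by side. On the Meg3-Rtl1 side 3 of 12 tested members were lower in G93A/G93A against WT/WT, 9 of 12 had a difference below 0 and the median was −0.20, beside 4.83% lower, 57.1% below 0 and a median of −0.01 over all tested miRNAs. On the Mirg side 1 of 31 was lower, 19 of 31 were below 0 and the median was −0.12. In Rian, miR-341-3p differed by −0.15 ± 0.12 and miR-370-3p by 0.10 ± 0.18 (SE), and neither passed. Over the members detected on all arrays, the medians were −0.39 for 9 on the Meg3-Rtl1 side and −0.11 for 28 on the Mirg side. The median was −0.07 over all 423 miRNAs detected on all arrays.

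A value that needs no scaling between arrays is the gap of the 2 medians within an array. The Meg3-Rtl1 median minus the Mirg median, over members detected on all arrays, was 0.50 and 0.18 in WT/WT, 0.01, 0.03 and 0.18 in G93A/WT and −0.02, −0.08 and 0.04 in G93A/G93A. The G93A/G93A arrays all lay below both WT/WT arrays, and G93A/WT 3 met WT/WT 2. WT/WT 1 alone held a gap of that size, and no test was made of a score over chosen members. Along the locus, the difference of G93A/G93A from WT/WT correlated weakly with the order of the hairpins (Pearson r = 0.28, Spearman rho = 0.24 over 39 members detected on all arrays, which share the 8 arrays). The plot of differences along the chromosome shows the lower values of the Meg3-Rtl1 side beside members of the same side near 0.

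**Figure D3:**
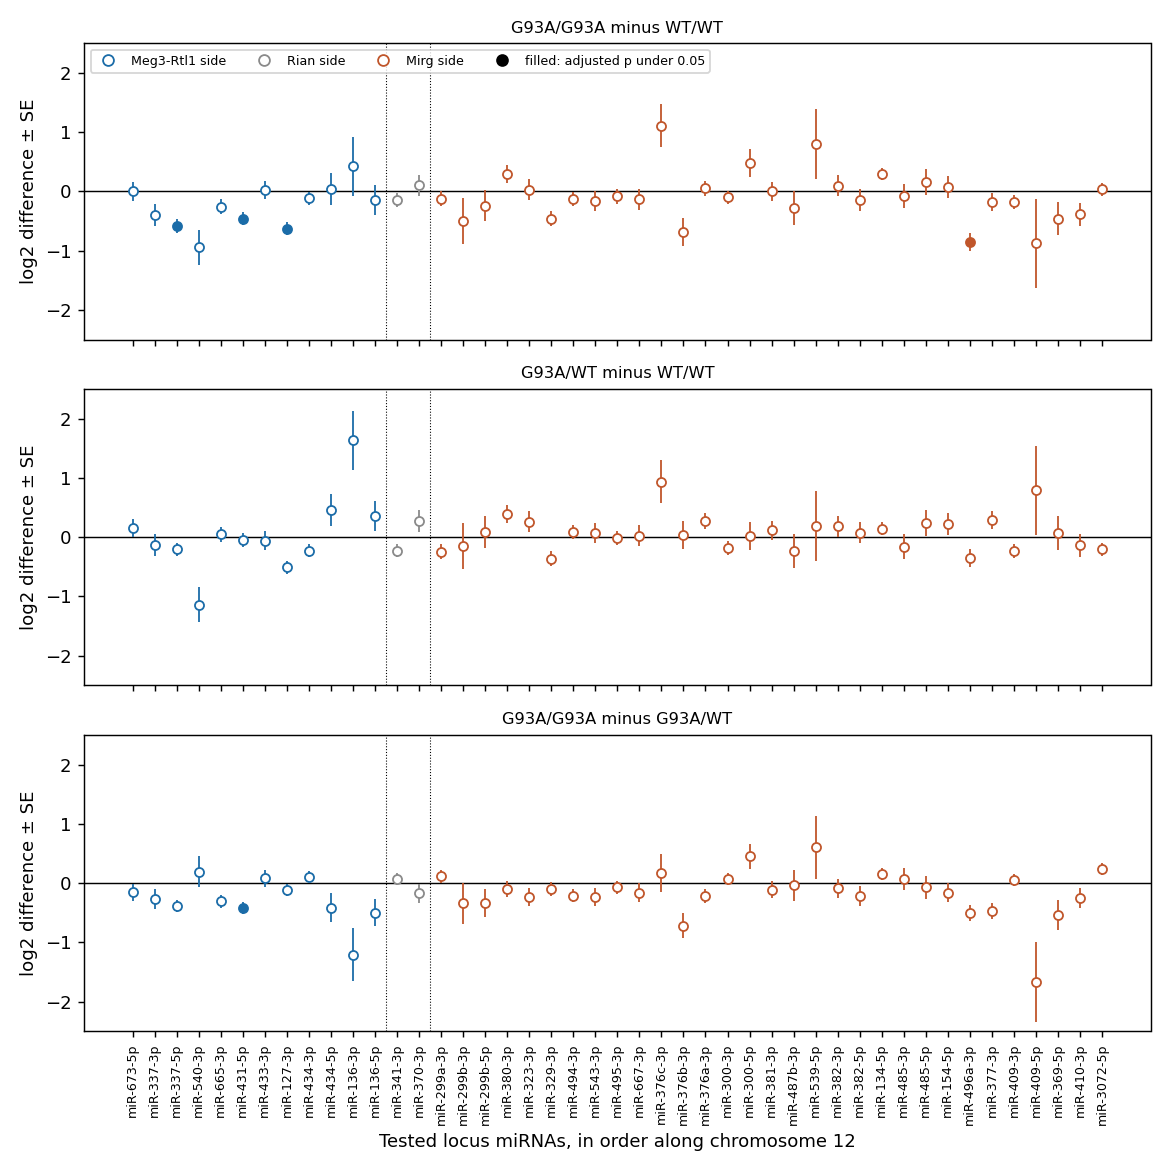
Log2 difference between groups (points, with limma's SE as bars) for the 45 tested locus miRNAs in order along chromosome 12, for G93A/G93A minus WT/WT (top), G93A/WT minus WT/WT (middle) and G93A/G93A minus G93A/WT (bottom), coloured by subcluster and filled where the adjusted p was under 0.05. Filled points are 4 in the top panel, none in the middle and 1, miR-431-5p, in the bottom.

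Mixed cultures of G93A and WT cells were next compared with WT/WT. None of the 45 tested locus miRNAs passed by limma, against 3.9% of the 538 tested miRNAs (3.16% higher, 0.743% lower), and 6 of 45 members had an unadjusted p below 0.05, against 132 of 538 tested miRNAs. The members' median was 0.05, with 19 of 45 below 0, and that of all tested miRNAs was 0.04. The groups did not overlap for 11 members with G93A/WT lower, against 26% of tested miRNAs, and for 7 with it higher, against 19.3%. By side the medians were −0.05 for Meg3-Rtl1, 0.02 for Rian and 0.07 for Mirg. Where arrays were scaled to equal medians, the members' median was −0.05 and that of all tested miRNAs −0.06. The members' median was also negative without G93A/WT 2 (−0.02) and without G93A/WT 3 (−0.005). It was −0.02 with miRNAs numbered below 1000 centred apart from the rest. In these last settings the median of all tested miRNAs stayed positive.

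The member nearest the threshold was miR-127-3p. Its G93A/WT arrays, at 7.03 to 7.25, lay under both WT/WT arrays, and the log2 difference was −0.51 ± 0.11 (SE, limma adjusted p = 0.053). It passed with arrays scaled to equal medians (−0.62, adjusted p = 0.0436) and with quantile normalization (−0.36, adjusted p = 0.0496). miR-540-3p differed by −1.14 ± 0.29 (SE, limma adjusted p = 0.0703), again with both WT/WT arrays highest. miR-376c-3p differed by 0.94 ± 0.36 (SE, limma adjusted p = 0.173). Within slide row 1, and so against the low WT/WT 1 alone, it differed by 1.63 and passed (adjusted p = 0.0351). miR-380-3p, a Mirg-side member, read 4.09 and 3.92 in WT/WT, 4.13, 4.52 and 4.53 in G93A/WT and 4.24, 4.27 and 4.39 in G93A/G93A. Both WT/WT arrays were lowest, with a difference of 0.39 ± 0.15 (SE, limma adjusted p = 0.176) for G93A/WT.

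Only 1 member was detected on all arrays of one group and none of another. miR-136-3p, the minor arm of a hairpin antisense to Rtl1, was undetected on both WT/WT arrays, read 1.76, 3.02 and 1.92 in G93A/WT, and was detected in G93A/G93A on the third array alone, at 1.88. It was highest on G93A/WT 2, the brightest array. It was at least 2.73-fold higher in G93A/WT than in WT/WT, against the lowest detected signal of each WT/WT array, and did not pass (limma adjusted p = 0.106). Leaving out G93A/G93A 3, which is in neither group but adds to the shared spread, brought it past the threshold (adjusted p = 0.045) with miR-127-3p and miR-540-3p. Without that array miR-136-3p was detected in the brighter G93A/WT group alone and stood at the floor on all other arrays. That p for miR-136-3p thus rests on floored values without spread. Its partner arm miR-136-5p differed by 0.35 ± 0.25 (SE) in the same comparison, with its G93A/WT arrays, 4.04 to 4.24, just above WT/WT 2 at 4.01.

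The comparison of G93A/G93A with G93A/WT set medium of pure mutant cultures against that of mixed ones. Of the 45 locus miRNAs, 1 was lower, miR-431-5p, and none higher, against 10.6% of all tested miRNAs (5.2% lower, 5.39% higher). miR-431-5p was lower by −0.42 ± 0.10 (SE, limma adjusted p = 0.0379), with no overlap of 4.42 to 4.64 with 4.89 to 5.00. These groups share no slide row, and with the row as a block the difference was −0.28 with adjusted p = 0.633. It passed in 8 of 21 alternatives, was negative in all 21 and did not pass where arrays were scaled to equal medians (−0.34, adjusted p = 0.0584) or on leaving out any 1 of G93A/WT 1, 2 or 3 or G93A/G93A 1 or 2, or either WT/WT array. Its sign was largely fixed in advance, since the groups did not overlap and settings such as the filter leave the difference as it is.

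The members' median was −0.16 in that comparison, with 32 of 45 below 0, against −0.10 and 58.0% below 0 over all tested miRNAs. For tested miRNAs numbered below 1000 the median was −0.20. Unadjusted p was below 0.05 for 9 of 45 members and 173 of 538 tested miRNAs. Groups did not overlap for 9 members with G93A/G93A lower, against 19.1% of tested miRNAs, and for 2 with it higher, against 15.6%. The medians were −0.29 on the Meg3-Rtl1 side, −0.05 in Rian and −0.12 on the Mirg side. miR-337-5p (−0.38 ± 0.10, limma adjusted p = 0.0565), miR-496a-3p (−0.51 ± 0.14, adjusted p = 0.0602) and miR-376b-3p (−0.72 ± 0.21, adjusted p = 0.0752) came nearest (SE each). miR-377-3p read 5.13, 5.38 and 5.34 in G93A/WT and 4.79, 4.71 and 4.94 in G93A/G93A, with 5.18 and 4.80 in WT/WT. The mutant and mixed groups did not overlap, at −0.47 ± 0.14 (SE, limma adjusted p = 0.0758), and the WT/WT arrays fell in either range. Without G93A/G93A 3 the count of locus calls became 5 lower and 1 higher. Among the lower was miR-136-3p, then detected in G93A/WT alone, whose call rests on floored values.

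The 2 arms of a hairpin come from the same transcript. Their ratio was taken within each array, and so does not depend on the scaling between arrays. Of 24 mouse precursors with both arms detected on all 8 arrays, 5 were locus members: miR-299b, miR-300, miR-337, miR-382 and miR-434. None of the 5 passed in any comparison, against 4.17% of the 24 for G93A/G93A and WT/WT, 0% for G93A/WT and WT/WT and 8.33% for G93A/G93A and G93A/WT (limma on log2 of 3p over 5p, adjusted over the 24).

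For miR-337 the log2 ratio of 3p to 5p was 1.67 and 1.53 in WT/WT, 1.53, 1.70 and 1.80 in G93A/WT and 1.60, 1.85 and 1.92 in G93A/G93A. The groups overlapped, and the ratio differed by 0.19 ± 0.17 (SE, limma adjusted p = 0.445) between G93A/G93A and WT/WT. miR-337-3p itself read 5.10 and 4.88, then 4.63, 4.96 and 5.00, then 4.37, 4.56 and 4.84, all G93A/G93A arrays below both WT/WT arrays, and differed by −0.39 ± 0.18 (SE, limma adjusted p = 0.224). The 5p arm passed and the 3p arm did not, while a difference between the arms was not detectable.

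The miR-434 ratio was 7.29 and 7.82 in WT/WT, 6.84, 6.95 and 6.81 in G93A/WT and 7.70, 7.50 and 6.99 in G93A/G93A. G93A/WT lay below every other array. The ratio differed by −0.68 ± 0.25 (SE) between G93A/WT and WT/WT, with limma adjusted p = 0.202. The minor arm miR-434-5p read 2.88 and 2.16 in WT/WT, 2.91, 2.98 and 3.04 in G93A/WT and 2.20, 2.53 and 2.95 in G93A/G93A, with its lowest readings on WT/WT 2 and G93A/G93A 1.

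The miR-300 ratio was 4.97 and 5.38 in WT/WT, 5.21, 4.77 and 4.97 in G93A/WT and 4.40, 4.92 and 4.47 in G93A/G93A. The G93A/G93A arrays lay under both WT/WT arrays, by −0.58 ± 0.23 (SE, limma adjusted p = 0.198). miR-300-5p differed by 0.48 ± 0.24 and miR-300-3p by −0.10 ± 0.12 (SE) in that comparison. The ratios of miR-299b and miR-382 differed by −0.25 ± 0.44 and 0.24 ± 0.22 (SE), with overlapping arrays. The miR-299b ratio may not be that of 1 hairpin, because the probe of its 3p arm could also read miR-299a-3p.

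Allowing arms that were tested but not detected everywhere added miR-136, miR-409 and miR-485, whose ratios depend on the floor. It also added miR-433, whose 5p arm was no member, was detected on 2 arrays and stood at the floor on all 8. The miR-433 ratio therefore only repeats its 3p arm and is not plotted. For miR-136 the ratio differed by 1.28 ± 0.39 (SE, limma adjusted p = 0.141) between G93A/WT and WT/WT. miR-409-5p was undetected on WT/WT 1 and on G93A/G93A 1 and 2 and read 3.12 on WT/WT 2, 2.02, 3.05 and 2.90 in G93A/WT and 1.75 on G93A/G93A 3. Its partner miR-409-3p stayed within 5.92 to 6.34 on all 8 arrays. miR-485-3p was detected on 4 arrays and miR-485-5p on all 8, between 3.34 and 3.92.

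**Figure D4:**
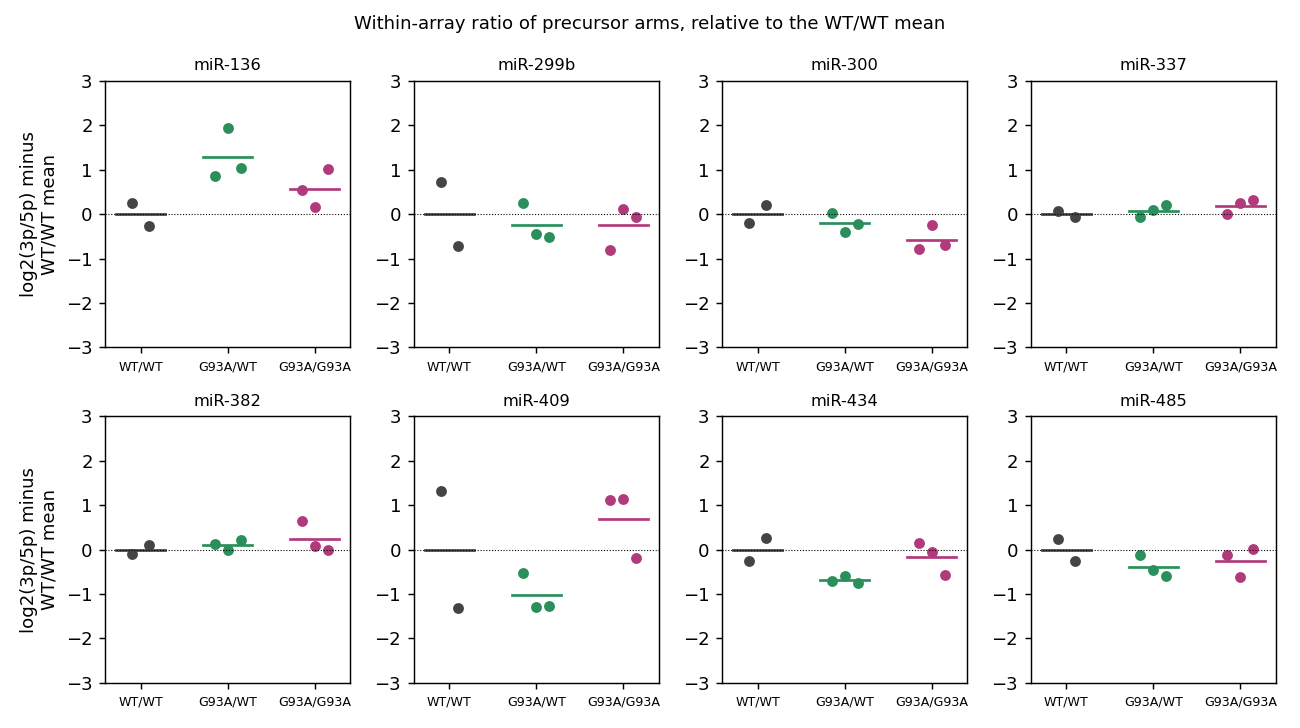
Log2 ratio of the 3p to the 5p arm within each array (points) minus the WT/WT mean, for 8 locus precursors with both arms tested (miR-433 is left out), with group means as lines, for WT/WT (n = 2), G93A/WT and G93A/G93A (n = 3 each). G93A/WT lies below WT/WT for miR-434 and above it for miR-136, and miR-409 is spread over the range because its 5p arm was undetected on 3 arrays.

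Among the 42 tested members with a RefSeq sequence there were 41 different seeds. The shared one, AUGUGGG, belongs to miR-299a-3p and miR-299b-3p, and the 18 bases of miR-299b-3p equal the first 18 of the 22 of miR-299a-3p. miR-299a-3p read 1.70 and 1.72 in WT/WT, 1.37, 1.59 and 1.44 in G93A/WT and 1.54, 1.75 and 1.48 in G93A/G93A. miR-299b-3p read 3.51 and 2.74, then 3.06, 2.90 and 2.97, then 1.88, 3.11 and 2.92. The low array of the second, G93A/G93A 1, was not low for the first, so the 2 readings parted on that array. Both members are dim, with mean scanner errors of 18.5% and 17.5% of the signal. Whether the 2 probes read different molecules was not tested. The differences of G93A/G93A from WT/WT were −0.12 ± 0.12 and −0.49 ± 0.39 (SE), and neither passed.

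miR-300-3p and miR-381-3p share a run of 16 bases from base 5 and differ within the seed. miR-300-3p ranged from 7.60 to 7.90 and miR-381-3p from 4.66 to 5.16 over the 8 arrays, and their differences of G93A/G93A from WT/WT were −0.10 ± 0.12 and 0.01 ± 0.16 (SE). miR-543-3p and miR-495-3p share 12 bases at their 3′ end with different seeds, and differed by −0.16 ± 0.17 and −0.08 ± 0.12 (SE). None of these 4 passed. The GC content of members detected on all arrays had a median of 46.5% (36 with a sequence), that of undetected members 47.4% (9) and that of all tested mouse miRNAs 54.5% (453 with a sequence). Over 36 members, GC content correlated with the difference at r = −0.08 for G93A/G93A and WT/WT, −0.33 for G93A/WT and WT/WT and 0.25 for G93A/G93A and G93A/WT, as a description over members that share the 8 arrays.

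The array also read 55 other mature miRNAs that RefSeq places between the start of Meg3 and the end of Mirg, leaving out miR-379 and miR-411. Of these, 46 were undetected, 8 were tested and 5 were detected on all arrays. In each comparison 1 of the 8 passed, as higher, beside 3.72%, 3.16% and 5.39% higher over all tested miRNAs in the order of the comparisons above. miR-3070-2-3p was higher in G93A/G93A than in WT/WT by 0.99 (limma adjusted p = 0.0294) and in G93A/WT than in WT/WT by 1.06 (adjusted p = 0.0415). miR-882 was higher in G93A/G93A than in G93A/WT by 0.92 (adjusted p = 0.00314). miR-379-5p, whose hairpin stands beside Mir411 on the Mirg side, was lower in G93A/G93A by −0.53 than in WT/WT (limma adjusted p = 0.0346) and by −0.57 than in G93A/WT (adjusted p = 0.0122). miR-411-3p was lower than in WT/WT by −1.19 in G93A/G93A (limma adjusted p = 0.00595) and by −0.76 in G93A/WT (adjusted p = 0.0392). miR-411-5p, detected on the 3 G93A/WT arrays alone, was at least 2.02-fold higher there than in WT/WT (limma adjusted p = 0.000741). It was tested only through that brighter group and stood at the floor on all other arrays. Its p thus rests on floored values without spread.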

How the data were processed

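Culture medium of 8 co-cultures was measured on 8 one-colour Agilent miRNA arrays of 1 slide, with 150 ng of small RNA labelled, per the labels' protocols. Per the file headers, each deposited scanner file holds, for every miRNA, a linear intensity (total gene signal) with its error, and whether it was detected. Undetected miRNAs stand at 0.1. The scanner software's settings were not given in the sources used. A deposited table of the authors' processed intensity values of 492 mouse miRNAs (array medians 25.4 to 28.1, r = 0.989 to 0.999 with the scanner values, not centred, normalization unknown) served as an alternative.

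Signals were scaled to an equal 75th percentile over the 423 miRNAs detected on all 8 arrays (factors 0.593 to 1.44), floored at 1.52 signal units (log2 0.60) and taken to log2. The 538 miRNAs detected on at least 2 arrays were fitted by lmFit and eBayes of limma 3.58.1 (R 4.3.3), with 1 spread over the 3 groups and no covariate, with Benjamini-Hochberg adjustment and a threshold of 0.05. A bound sets a group's mean against the mean of the lowest detected signals of the undetected group's arrays. Arm ratios were fitted in the same way over 24 precursors. The fit was tested on simulated data. Plots used matplotlib 3.10.9 in Python 3.11.15.

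Precision is limited by having only 2 or 3 arrays in a group. For members detected on all arrays the scanner's error was 5.44% to 22.9% of the signal (median 10.7%, each member's mean over arrays). Groups came from the sample titles. Alternatives covered scaling, floor, filter, spread prior, slide row, replicate number, the deposited table and leaving out each array. Members and lists were chosen with earlier results of these data known. Named with values were members past the threshold, the 5 with the largest difference per comparison, both arms of tested precursors (some only by their ratio or detection), members undetected in 1 group, members sharing a seed and the best measured member of each subcluster. miR-329-3p, miR-377-3p, miR-376a-3p, miR-381-3p, miR-495-3p, miR-543-3p, the undetected members and the other locus miRNAs were added after their values were seen.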

Additional observations from a re-analysis of the deposited data

How the results depend on the processing

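For the comparison of G93A/G93A with WT/WT, 46 of all tested miRNAs passed (20 higher, 26 lower), and leaving out 1 array gave 7 to 57 (7 without WT/WT 1, 21 without WT/WT 2, 29 without G93A/G93A 1, 22 without G93A/G93A 2). The count was 14 without scaling between arrays, 29 with miRNAs detected on all arrays only, 12 with no filter, 7 with the slide row block, 0 within row 2 and 21 with only the 2 groups compared. Scaling to equal medians gave 5 higher and 28 lower, centring low- and high-numbered miRNAs separately 5 and 27, and the authors' processed values gave 26 and 23. The 4 locus calls became 0 without scaling, with no filter, with the slide row block, within row 2 and with only the 2 groups compared, and 0 to 5 on leaving out 1 array. All 4 differences stayed negative in all 22 alternatives, and the calls held in 13 for miR-127-3p, 12 for miR-337-5p, 8 for miR-431-5p and 15 for miR-496a-3p. Settings that change only the filter, the spread prior or the G93A/WT arrays leave these differences as they are. As the groups did not overlap, leaving out 1 of their arrays could not turn the sign either. The constant sign was thus largely fixed in advance. The members' median was 0.02 without scaling.

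For G93A/WT and WT/WT the count of all calls was 21, with 7 to 61 on leaving out 1 array (7 without WT/WT 1, 61 without G93A/G93A 3, 35 and 12 on dropping G93A/WT 1 and G93A/WT 2), 130 without scaling, 4 in the authors' table, 33 with a higher floor, 0 with miRNAs detected on all arrays only, 39 with those detected on all arrays of a group, 9 with no filter and 42 with only the 2 groups compared. Quantile normalization gave 6 higher and 10 lower and scaling to equal medians 16 and 11, against 17 and 4. The 0 locus calls became 8 without scaling, 1 each with scaling to equal medians, quantile normalization, a higher floor, miRNAs detected on all arrays of a group, the slide row block, row 1 alone and an intensity trend, and 0 to 3 on leaving out 1 array. Without scaling, the median of all tested miRNAs was 0.79 and the members' median 0.79.

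For G93A/G93A and G93A/WT all calls numbered 57, with 38 to 122 on leaving out 1 array (122 without G93A/G93A 3), 149 without scaling, 37 with no filter and 0 with the slide row block. The 1 locus call became 0 with scaling to equal medians, with no filter and with the slide row block, 11 without scaling, 2 with a higher floor and with miRNAs detected on all arrays only, 3 with those detected on all arrays of a group, and 0 to 6 on leaving out 1 array. In the authors' table the 1 call was miR-299a-3p, higher. Without scaling, the members' median was −0.73 and that of all tested miRNAs −0.68.

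Arm ratios passed for 1 precursor between G93A/G93A and WT/WT (4 with all tested pairs, 0 to 1 on leaving out 1 array). Between G93A/WT and WT/WT it was 0, with 2 in all tested pairs, 1 with the slide row block, 3 in the authors' table and 0 to 1 on leaving out 1 array. Between G93A/G93A and G93A/WT it was 2, with 5 in all tested pairs, 0 with the slide row block, 4 in the authors' table and 0 to 3 on leaving out 1 array.

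Deviations of same-numbered arrays from their group means correlated at −0.31 to 0.31, over 0.1 in 2 of 7 pairs, and 1 of 8 arrays correlated best with its own number. With 2 or 3 arrays in a group, deviations from the group mean are tied to each other. These values thus cannot decide whether replicate numbers pair the arrays. With the replicate block, all calls numbered 10, 8 and 37 in the order of the comparisons above, locus calls 0, 0 and 0, and arm ratios between G93A/G93A and G93A/WT 1. Scaling over all probes was not run, because its percentile is an undetected value on some arrays. The causes of these shifts were not tested. With 2 control arrays, differences of dim members such as miR-540-3p and miR-376c-3p are limited by single arrays.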

Other observations

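Single arrays stood apart for a few locus miRNAs that passed no test. miR-539-5p read 3.21 on G93A/G93A 1 and 1.03 to 2.15 on the other 7 arrays, and miR-299b-3p read 1.88 on that array and 2.74 to 3.51 on the others. Of the dim members, miR-673-5p was detected on 2 arrays and miR-667-3p on 2, while miR-665-3p was detected on 7, all but G93A/G93A 2. miRNAs numbered below 1000, to which 38 of the 39 members detected on all arrays belong, had a median log2 difference of −0.11 between G93A/G93A and WT/WT (290 miRNAs), and those numbered 1000 or above 0.01 (248). Between G93A/G93A and G93A/WT these medians were −0.20 and 0.05.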
